A study of Mus musculus with 42 samples.

Results

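The zinc finger genes of mouse chromosome 7 were described in cerebellum under 6 feeding conditions. A gene was a member when its symbol was Zfp followed by digits only, it lay on chromosome 7 and it was annotated as protein-coding in both deposited count tables. This gave 85 members among 35275 listed genes; 250 genes of the same naming form and type lay on other chromosomes. The rule used names, position and gene type, and no measured value.

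Total RNA of cerebellum from male C57BL/6 mice (substrain C57/BL6NTac in the design text) was sequenced in 30 libraries, 5 per group. From 3 months of age they were fed ad libitum (AL), fasted for 16 h each day (IF16) or fasted for 24 h on alternate days (EOD), each for 3 months, and were 6 months old at collection. The 3 refed groups (AL-R, IF16-R and EOD-R) went through the same regimens and then had free access to food for another 2 months, to 8 months of age, so AL-R mice were never fasted. The regimen groups and the refed groups were counted in separate tables, differ in age; tests between groups were run within a table, and the 2 tables were set together only for levels over all 6 groups and for the tests of change after refeeding. The labels do not state whether a library came from 1 mouse or a pool, so p-values measure the spread between the libraries. A further 12 samples, immunoprecipitated chromatin and its inputs, were not analysed here.

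Total counts ran from 26799825 to 36167435 per library. Markers of Purkinje cells summed to between 7165 and 9021 counts per 1000000 counts of the library (CPM) and those of granule cells to between 5195 and 6107 CPM, while 4 forebrain markers summed to 4.01 to 8.07 CPM. Sums ran from 1706 to 2492 CPM for astrocyte and Bergmann glia markers, 4334 to 6061 for oligodendrocyte, 77.2 to 92.1 for microglia, 183 to 259 for endothelium and 8.68 to 114 for red blood cell markers. Choroid plexus markers varied most, from 156 to 5144 CPM in sum. Their median sums were 2879 (AL), 947 (IF16) and 2674 CPM (EOD), against 176 (AL-R), 170 (IF16-R) and 175 CPM (EOD-R). The ranges overlapped, from 172 to 4153 CPM in IF16 and from 167 to 3055 CPM in EOD-R. The part of these markers in the members' values was not tested. In whole tissue, fewer cells of a type and less RNA per cell cannot be told apart.

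Most genes named Zfp encode proteins with tandem C2H2 zinc fingers, each finger contacting a few bases of DNA. Many of them also carry a KRAB domain, which recruits Trim28 (KAP1) and, through it, the methyltransferase Setdb1, which places the repressive mark H3K9me3 on transposable elements. Such genes arose by repeated local duplication, lie in clusters, and their own clusters are known to carry H3K9me3, often over the exons that encode the fingers. Not every member is of this kind: Zfp36, also called tristetraprolin, has CCCH fingers that bind AU-rich elements of messenger RNA and hasten its decay.

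The members lay between positions 4915217 and 140822178 of chromosome 7 (deposited positions, build mm10). Splitting them wherever the gap to the next member exceeded 1000000 bases gave 17 blocks. Of these, 8 blocks with at least 6 members each held 74 members, and 7 members stood alone. The largest blocks were block 6, from 24081924 to 25227507 (Zfp180 to Zfp526), and block 8, from 29768552 to 30169727 (Zfp84 to Zfp146), with 14 members each. Another annotated gene overlapped 15 of the 85 members, and Zfp668 and Zfp646 overlap at their starts on opposite strands. Strand handling in counting is not given in the sources used here, so reads of overlapping genes may not be separable, and reads shared by near-identical fingers of neighbouring paralogs make single members less certain.

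Per length, the members were expressed at low to moderate levels. The median member had 3.95 FPKM (fragments scaled by gene length and library total, averaged over the 30 libraries), close to the 3.97 FPKM of Zfp genes elsewhere and below the 7.76 FPKM of protein-coding genes, the last 2 taken over genes tested in both tables. Levels were at least 10 FPKM for 13 members and under 1 FPKM for 10. Zfp936 had no count in any library and Zfp819 had 0 to 7 counts; both fell below the expression filter in both tables, Zfp541, a gene known from meiosis in testis, in the regimen table (2 to 15 counts over all libraries), and Zfp82 in the refeeding table (3 to 17 counts). Thus 82 members were tested in each table and 81 in both.

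The 6 most abundant members, ordered by mean FPKM, were Zfp771 (33.3), Zfp579 (33.1), Zfp428 (22.7), Zfp511 (18.5), Zfp444 (18.3) and Zfp146 (18.3). Zfp771, at 127244526 to 127254803, had 39.2 ± 9.51 FPKM in AL and 32.2 ± 3.73 in EOD, with the IF16 mean between them (SD, n = 5). Its refed groups had 32.3 ± 1.90 (AL-R), 31.1 ± 1.80 (IF16-R) and 31.2 ± 1.87 FPKM (EOD-R; SD, n = 5). Neighbours in this order differed by less than their spread between AL libraries for Zfp771 and Zfp579 (40.7 ± 10.3 FPKM in AL, SD, n = 5), and the same held in AL for Zfp511 (21.6 ± 1.59) and Zfp444 (20.7 ± 3.20). Zfp146, which encodes a protein made almost wholly of zinc fingers, had its lowest mean in AL, 15.6 ± 3.11 FPKM, and its highest in IF16-R, 20.6 ± 1.55 (SD, n = 5), a difference between tables that was not tested.

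**Figure D1:**
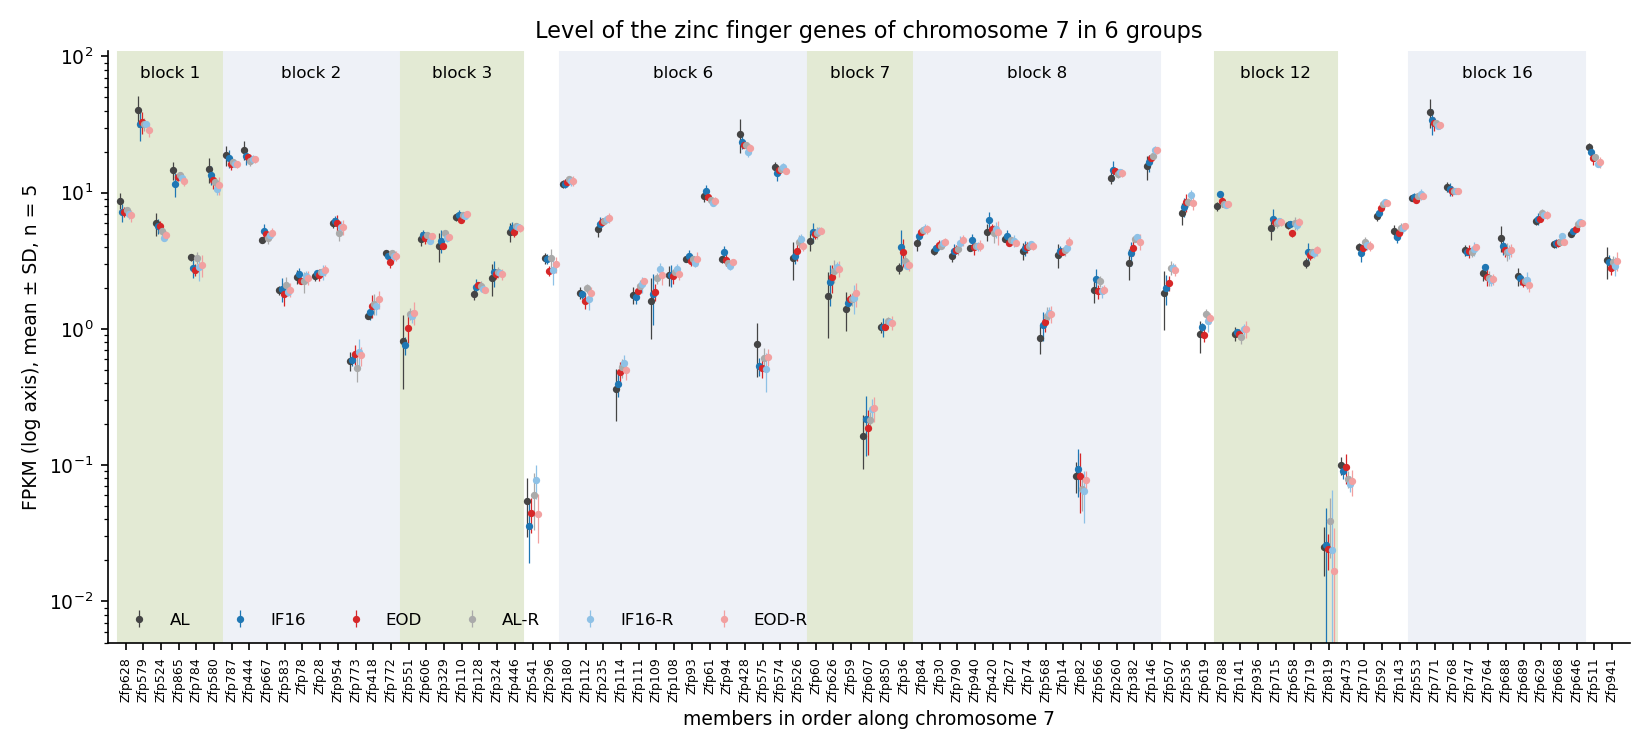
Level of each member in FPKM (log axis, mean ± SD of 5 libraries) in the 6 groups, in order along chromosome 7, with the 8 blocks of at least 6 members shaded; Zfp936, at 0, has no point. The 6 group means of a member lie close together beside the range across members, from under 0.1 to 33.3 FPKM.

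Levels differed little between the 6 groups, which differ in feeding and, between regimen and refed groups, also in age and count table. Over the 81 members tested in both tables, the ratio of the highest to the lowest of the 6 group means in FPKM had a median of 1.23, the same as over all 16320 genes tested in both tables (1.23). It stayed under 1.5 for 72 members (88.9%, against 85.7% of all genes) and reached 2 for no member (0%, against 3.05%). The highest ratio was 1.74, for Zfp109, between IF16-R and AL. The coefficient of variation across the 15 libraries of a table had a median of 12.7% over members in the regimen table and 8.34% in the refeeding table, against 14.3% and 8.11% over all genes tested.

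Part of the members' promoters, those of 23 of 76 members, held a sequence feature that the rule did not use. RefSeq windows of 300 bases (250 before to 50 after the annotated start, GRCm38.p6) were found for 76 of the 85 members, 85 windows in all, and 8 motifs were searched on both strands. The motif ACTACANNNCCCA was present in 27.1% of the members' windows, in 11.9% of 277 windows of Zfp genes elsewhere and in 1.69% of all 32851 windows. Its first part alone, ACTACA, was present in 34.1%, 19.1% and 10.3% of the same windows. These letters resemble the core of the element known to be bound by the activator Zfp143, which is itself a member; a match is a description of the sequence and no binding was measured here.

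The motif had 26 matches in 23 members (3 of them in Zfp112 and 2 in Zfp108), starting between 150 bases before and 32 bases after the annotated start, with a median of 67 bases before it. It lay on the gene's own strand at 9 matches and on the opposite strand at 17. Block 8 held 9 of these members out of 13 with a window, block 6 held 6 of 11 and block 2 held 5 of 10. Blocks 1, 12 and 16 held none of 4, none of 7 and none of 9. The stretches below show the 9 matches of block 8 and 4 from other blocks for comparison. Their fixed letters are the same by the search, so only the free and flanking bases of each stretch can differ. Each is written 5′ to 3′ on the strand of the motif, with its coordinates in GRCm38.p6 and the fixed letters of the motif in capitals.
Zfp84 (chr7:29768516-29768552, minus strand): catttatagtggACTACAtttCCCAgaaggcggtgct
Zfp790 (chr7:29815955-29815991, minus strand): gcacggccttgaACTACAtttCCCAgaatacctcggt
Zfp940 (chr7:29853662-29853698, plus strand): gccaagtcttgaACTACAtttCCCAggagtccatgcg
Zfp420 (chr7:29859908-29859944, plus strand): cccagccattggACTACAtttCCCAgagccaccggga
Zfp74 (chr7:29954093-29954129, plus strand): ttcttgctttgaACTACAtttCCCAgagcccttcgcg
Zfp14 (chr7:30051386-30051422, minus strand): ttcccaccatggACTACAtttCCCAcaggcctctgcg
Zfp566 (chr7:30090562-30090598, minus strand): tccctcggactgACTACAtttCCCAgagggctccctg
Zfp260 (chr7:30095034-30095070, minus strand): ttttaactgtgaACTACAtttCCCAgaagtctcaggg
Zfp146 (chr7:30169848-30169884, plus strand): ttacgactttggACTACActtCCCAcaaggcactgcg
Zfp773 (chr7:7136793-7136829, minus strand): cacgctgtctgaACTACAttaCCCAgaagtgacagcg
Zfp606 (chr7:12478269-12478305, plus strand): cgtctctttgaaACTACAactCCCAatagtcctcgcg
Zfp109 (chr7:24237700-24237736, plus strand): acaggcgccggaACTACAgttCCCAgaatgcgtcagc
Zfp93 (chr7:24270333-24270369, minus strand): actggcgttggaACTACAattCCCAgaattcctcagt

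The 3 free bases between the fixed parts were ttt at 8 of the 9 matches in block 8 and at 13 of all 26, and the base after the motif was g at 7 of 9 and at 20 of 26. Members with the motif and members whose window lacked it had close median levels, 3.93 FPKM over 23 members and 3.95 FPKM over 53. Of the other motifs, CCGGAAG, the letters of an ETS site, was present in 22.4% of the members' windows, 21.7% of those of other Zfp genes and 8.86% of all. The members' windows held a median of 15 CpG dinucleotides, against 14 in windows of other Zfp genes and 7 in all windows. Zfp143, at 110061702 to 110095392, had mean levels of 5.22 ± 0.537 (AL), 4.76 ± 0.490 (IF16) and 5.08 ± 0.219 FPKM (EOD; SD, n = 5), and these groups overlapped.

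**Figure D2:**
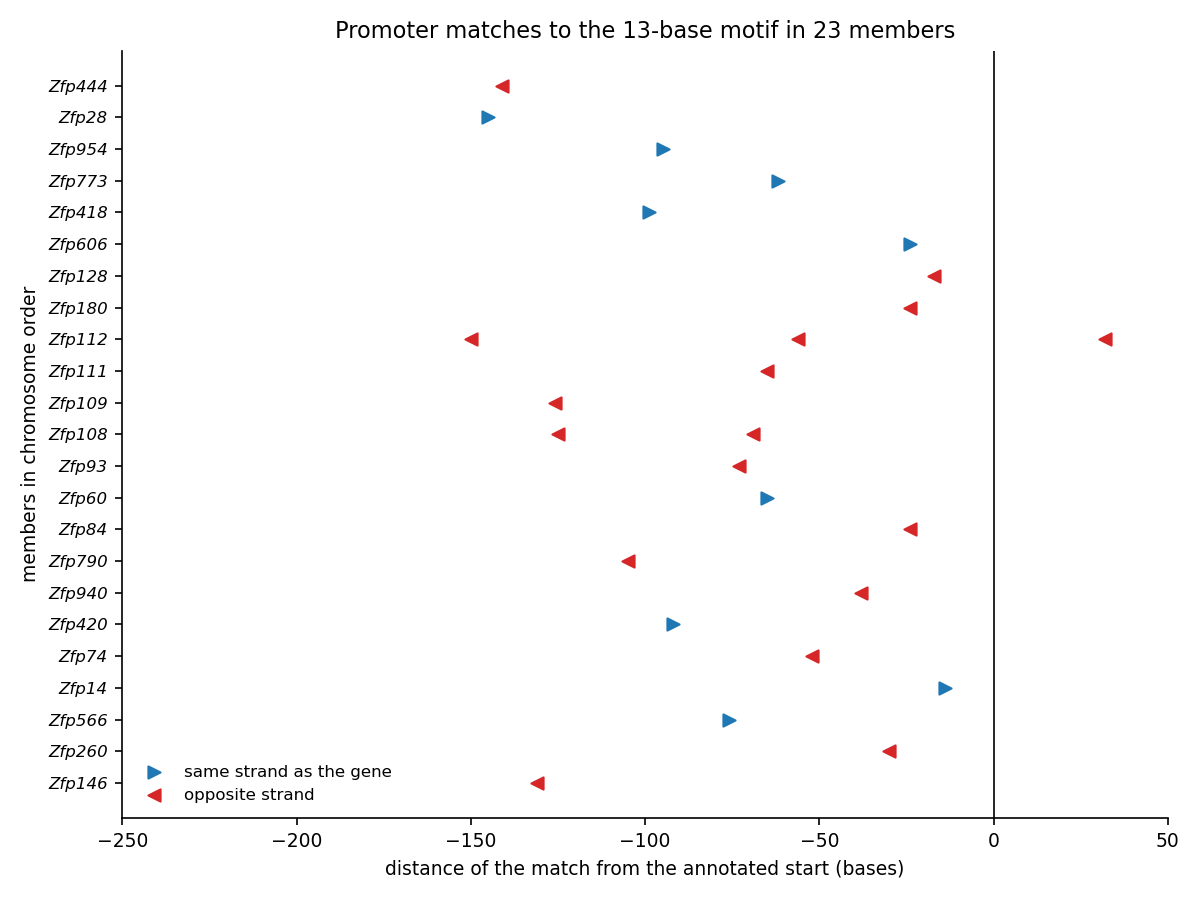
Distance in bases of each of the 26 motif matches from the annotated start of its gene (0, vertical line), for the 23 members that hold one, in chromosome order; arrows show the strand of the motif relative to the gene. The matches lie from 150 bases before to 32 bases after the start, and 17 of 26 are on the opposite strand.

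None of the members passed the test in any comparison of feeding groups. In edgeR's quasi-likelihood test with Benjamini-Hochberg adjustment over all genes tested, members with an adjusted p under 0.05 numbered 0 of 82 in each of the 6 comparisons within a table, and 0 of 83 in each of the 2 tests of whether a regimen's difference from ad libitum feeding changed after refeeding. DESeq2 gave 0 as well, except 1 of 84 members between IF16 and AL, where it called 94 of 25070 genes. The edgeR threshold was passed by few genes of any kind: 0.0483% of 16577 genes between IF16 and AL, 0.0664% between EOD and AL and 0% between EOD and IF16. After refeeding it was passed by 0.17% of 16444 genes between IF16-R and AL-R, 0.0426% between EOD-R and AL-R and 0.0182% between EOD-R and IF16-R. The shares of both tables rest on few calls and were not stable. The 28 calls between IF16-R and AL-R became 0 to 65 on leaving out 1 library, 95 with a replicate block and 0 with the length gradient described below as a covariate. The 7 between EOD-R and AL-R became 0 to 16, 45 and 0. With the same 3 changes, the 8 between IF16 and AL became 3 to 10, 5 and 62, and the 11 between EOD and AL became 2 to 6, 4 and 7. DESeq2 called 94 genes (IF16 against AL), 131 (EOD against AL), 108 (IF16-R against AL-R) and 90 (EOD-R against AL-R). The 2 tests of change after refeeding, over 16877 genes, gave 0.0474% for IF16 and 0.0119% for EOD.

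How large a difference could have been missed was set by the intervals. The 95% interval of the log2 fold change lay within ±0.5 for 61 of 82 members between IF16 and AL, 59 between EOD and AL and 70 between EOD and IF16. After refeeding it did so for 77, 79 and 79 members between IF16-R and AL-R, EOD-R and AL-R, and EOD-R and IF16-R. It lay within ±1, a 2-fold difference, for 79 to 81 members in every one of the 6 comparisons. The median half-width was 0.22 (log2) in the regimen table and 0.16 in the refeeding table, alongside the lower spread between refed libraries.

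**Figure D3:**
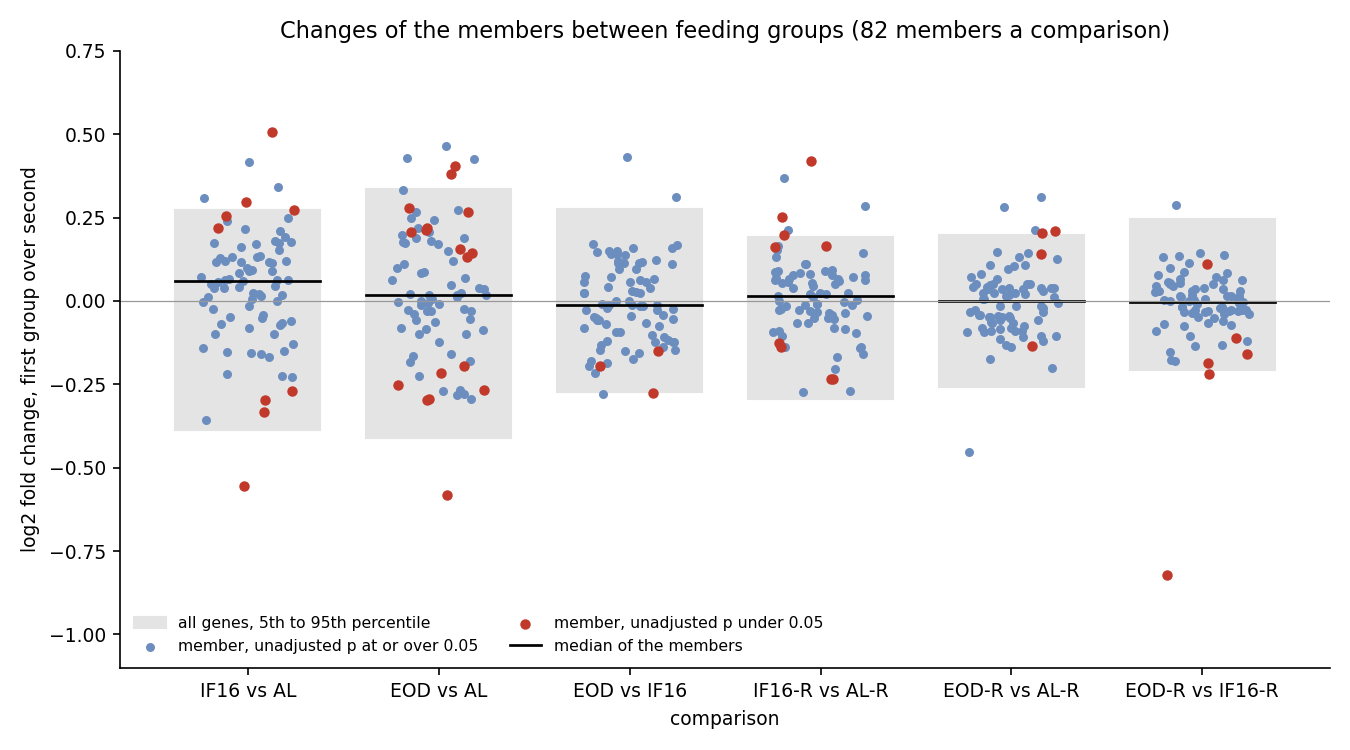
Log2 fold change of each of the 82 members tested in the 6 comparisons (points; red where the unadjusted p was under 0.05), with the median of the members (line) and the 5th to 95th percentile of all genes tested (grey box). The members' medians lie between -0.01 and 0.06.

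Between IF16 and AL, the median log2 fold change was 0.06 over the members and -0.01 over all genes; 54 members were above 0 and 28 below. An unadjusted p under 0.05 was reached in the higher direction by 5 members (6.10%, against 4.35% of all genes) and in the lower direction by 4 (4.88%, against 5.57%), shares near the background. The Zfp genes elsewhere had a median of 0.10 over 234 genes in the same comparison.

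Zfp788, at 41633203 to 41651534 in block 12, had the smallest p of all members. Its levels in TMM-scaled CPM were 31.6, 29.5, 31.3, 28.2 and 29.2 in the AL libraries and 37.7, 34.2, 37.9, 36.5 and 37.4 in the IF16 libraries. All 5 IF16 libraries lay above all 5 AL libraries, as they did for 2 of 82 members and 0.857% of all genes. The log2 fold change was 0.30 (SE 0.07), a 1.23-fold difference, with an adjusted p of 0.166 in edgeR, which does not pass. It passed only under 2 alternatives, DESeq2 (adjusted p = 0.00781) and edgeR with the length gradient described below as a covariate (adjusted p = 0.0476). In this comparison these 2 called 94 of 25070 and 62 of 16577 genes, against 8 of 16577 in the main edgeR test. Leaving out single libraries moved the edgeR adjusted p of Zfp788 between 0.101 and 0.404.

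Zfp788 in the EOD libraries lay at 34.9, 31.4, 37.4, 30.6 and 31.2 CPM, of which 2 were above every AL library. After refeeding the groups lay together, with means of 30.9 ± 1.76 (AL-R), 30.9 ± 1.01 (IF16-R) and 31.1 ± 1.40 CPM (EOD-R; SD, n = 5). The test of change after refeeding gave -0.29 (log2; SE 0.08) for IF16, with an adjusted p of 0.324 in edgeR.

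Zfp36 had the highest fold change between IF16 and AL among members with at least 1 CPM. Its levels were 4.77, 4.37, 4.68, 5.67 and 5.47 CPM in AL and 4.45, 4.93, 8.05, 8.22 and 9.80 CPM in IF16, so that 3 IF16 libraries lay above all AL libraries and the other 2 among them. EOD gave a like spread, 5.56, 4.74, 7.65, 6.94 and 8.53 CPM, again with 3 libraries above AL. The log2 fold changes were 0.51 (SE 0.20, edgeR adjusted p = 0.446) and 0.42 (SE 0.20, adjusted p = 0.352). In the refed libraries Zfp36 ranged from 4.72 to 6.34 CPM and the groups overlapped.

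Zfp667 had 16.1 to 17.2 CPM in AL and 17.4 to 22.2 CPM in IF16, without overlap, with a log2 fold change of 0.22 (SE 0.07, edgeR adjusted p = 0.363). Zfp420, known as Apak, a KRAB protein that binds p53, had 13.9 to 18.7 CPM in AL and 15.2 to 22.0 CPM in IF16, with overlap (0.27, SE 0.10, edgeR adjusted p = 0.419). On the lower side, Zfp575 had means of 1.45 ± 0.222 CPM in IF16 and 2.13 ± 0.953 in AL (SD, n = 5), and its highest library was AL replicate 4, at 3.64 CPM; the log2 fold change of Zfp575 was -0.55, and -0.28 without that library. Zfp579 had 79.5 ± 20.7 CPM in IF16 against 102 ± 27.7 in AL (SD, n = 5), within the spread of each.

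Between EOD and AL, more members reached an unadjusted p under 0.05: 10 in the higher direction (12.2%, against 7.02% of all genes) and 7 in the lower (8.54%, against 7.40%). Medians were 0.02 over the members and -0.02 over all genes. With the 4 libraries of extreme length gradient left out (AL 4, AL 5, IF16 1 and EOD 4), a choice made after seeing the data, the counts were 3 and 2, and with the gradient as a covariate they were 3 and 5. Over both directions the members' share was 20.7% (all genes 14.4%), 6.10% without these libraries (all genes 7.39%) and 9.76% with the covariate (all genes 8.33%), so the shares fell over all genes too.

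Zfp84, the first gene of block 8, had the smallest p between EOD and AL. It had 18.4, 18.9, 18.3, 14.3 and 17.6 CPM in AL and 21.3, 20.3, 20.1, 24.0 and 20.4 CPM in EOD, with every EOD library above every AL library. The log2 fold change was 0.28 (SE 0.09, edgeR adjusted p = 0.285), and 0.16 with the gradient as a covariate. Zfp667, Zfp128 and Zfp260 also lay higher in every EOD library than in any AL library, which makes 4 of 82 members, against 1.36% of all genes. For Zfp84, the lowest AL library, replicate 4, and the highest EOD library, replicate 4, are those with the most negative and the most positive gradient.

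Zfp772 had 9.80, 9.73, 10.1, 10.1 and 10.2 CPM in AL and 8.81, 8.25, 9.36, 7.84 and 8.72 CPM in EOD, and every EOD library lay below every AL library, as they did for Zfp784 and for 1.53% of all genes (Zfp772 -0.22, SE 0.07, edgeR adjusted p = 0.306). Zfp296, a gene of pluripotent cells, had 4.11 ± 0.303 CPM in EOD and 5.06 ± 0.576 in AL (SD, n = 5), with 4 EOD libraries below all AL libraries (-0.30, SE 0.10, edgeR adjusted p = 0.306). The members with the highest fold changes, Zfp626 (0.46, SE 0.31) and Zfp114 (0.43, SE 0.26), had under 2 CPM in both groups and overlapped.

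Between EOD and IF16, no member reached an unadjusted p under 0.05 in the higher direction (0%, against 1.76% of all genes) and 3 did in the lower (3.66%, against 1.86%). These were Zfp658, Zfp296 and Zfp788. Zfp658, at 43562256 to 43575461, had 16.7, 16.6, 19.2, 18.5 and 17.6 CPM in EOD and 21.0, 19.6, 20.2, 21.0 and 19.6 CPM in IF16, without overlap, as for 0.374% of all genes in this direction (-0.19, SE 0.07, edgeR adjusted p = 0.977). Zfp551 (0.43, SE 0.31) and Zfp114 (0.31, SE 0.25) had the highest fold changes and Zfp566 (-0.28, SE 0.16) the lowest, and all 3 overlapped between the groups.

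**Figure D4:**
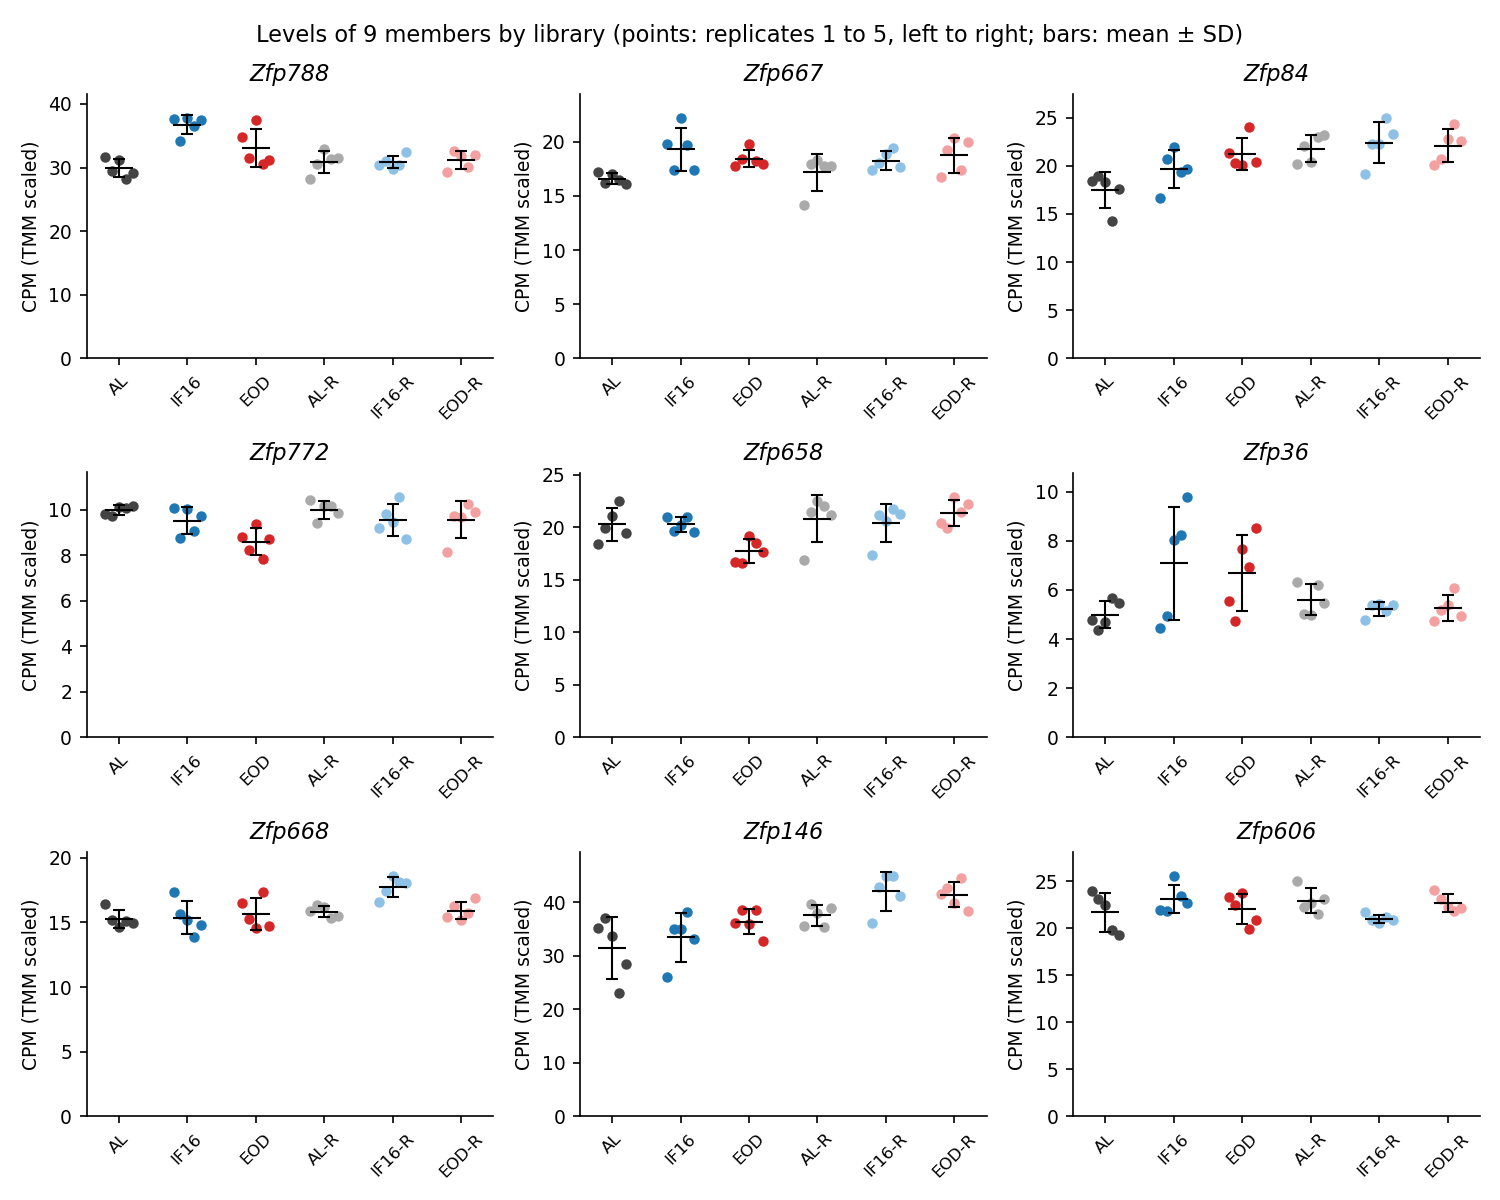
Level of 9 members in TMM-scaled CPM in each of the 30 libraries (points, replicates 1 to 5 from left to right in a group) with mean ± SD. The groups do not overlap for Zfp788 and Zfp667 (IF16 above AL), Zfp84 and Zfp667 (EOD above AL), Zfp772 (EOD below AL), Zfp658 (EOD below IF16), Zfp668 (IF16-R above AL-R) and Zfp606 (EOD-R above IF16-R); over all genes, 0.374% to 1.53% did so in these comparisons and directions, and no member's adjusted p was under 0.05.

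After refeeding, IF16-R and AL-R differed by a median of 0.01 (log2) over the members and by less than 0.01 over all genes. The counts at an unadjusted p under 0.05 were 5 higher (6.10%, against 4.76% of all genes) and 4 lower (4.88%, against 4.83%). All 15 refed libraries had length gradients between -0.03 and 0.04, but those of IF16-R lay wholly above those of AL-R (two-sided exact permutation p = 0.00794), the smallest p that 5 against 5 libraries can give. With the gradient as a covariate the counts were 0 and 1. Over both directions that is 1 member in place of 9, and 4.16% of all genes in place of 9.58%. Since the gradient separates IF16-R from AL-R, values with this covariate cannot tell the gradient apart from the regimen.

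Zfp668, at 127865170 to 127876828, had the smallest p in this comparison. Its levels were 15.9, 16.3, 16.2, 15.3 and 15.5 CPM in AL-R and 16.6, 17.4, 18.6, 18.1 and 18.1 CPM in IF16-R, without overlap, as for 1.07% of all genes. The log2 fold change was 0.16 (SE 0.05, edgeR adjusted p = 0.293), and 0.12 with the gradient as a covariate. EOD-R lay at 15.2 to 16.8 CPM, and its difference from IF16-R was -0.16 (SE 0.05, edgeR adjusted p = 0.307). Zfp646, whose first bases overlap Zfp668, had a difference of 0.07 (SE 0.06) in this comparison.

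Zfp146 had means of 37.5 ± 1.93 (AL-R), 42.0 ± 3.62 (IF16-R) and 41.4 ± 2.39 CPM (EOD-R; SD, n = 5). Its log2 fold changes against AL-R were 0.16 (SE 0.06, edgeR adjusted p = 0.362) for IF16-R and 0.14 (SE 0.06, edgeR adjusted p = 0.512) for EOD-R, and both comparisons share the AL-R libraries. With the gradient as a covariate they were 0.05 and 0.13. Zfp606 had 21.0 ± 0.444 CPM in IF16-R, against 22.9 ± 1.33 in AL-R and 22.7 ± 0.913 in EOD-R (SD, n = 5), and EOD-R and IF16-R did not overlap (as for 0.791% of all genes, higher in EOD-R; 0.11, SE 0.05, edgeR adjusted p = 0.458).

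Zfp773 and Zfp109 had the highest fold changes between IF16-R and AL-R, 0.42 (SE 0.19) and 0.25 (SE 0.11), and Zfp296 and Zfp575 the lowest, -0.27 (SE 0.14) and -0.27 (SE 0.19). The edgeR adjusted p of these 4 lay between 0.476 and 0.666. The difference of Zfp109 did not keep its sign with the gradient as a covariate, where it was -0.001.

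EOD-R and AL-R had a median difference of -0.001 (log2) over the members, with 41 above 0 and 41 below. An unadjusted p under 0.05 was reached by 3 members in the higher direction (3.66%, against 4.51% of all genes) and 1 in the lower (1.22%, against 3.99%). The 3 were Zfp146, Zfp14 (6.54 ± 0.607 CPM against 5.68 ± 0.534, SD, n = 5) and Zfp790, all of block 8, and the 1 was Zfp865 of block 1 (47.3 ± 3.54 CPM against 52.0 ± 2.01, SD, n = 5; -0.14, edgeR adjusted p = 0.451). By fold change, Zfp773 (0.31) and Zfp141 (0.21) were highest and Zfp566 (-0.20) and Zfp784 (-0.17) lowest, each with overlap.

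Between EOD-R and IF16-R, 1 member reached an unadjusted p under 0.05 in the higher direction (1.22%, against 4.99%) and 5 in the lower (6.10%, against 4.76%). Zfp536, a brain gene whose product is known to restrain neuronal differentiation, had 38.4 ± 4.34 CPM in EOD-R and 44.7 ± 4.24 in IF16-R (SD, n = 5), a difference of -0.22 (SE 0.08, edgeR adjusted p = 0.348). Zfp526 differed by -0.19 (SE 0.08) between the same groups. With the gradient as a covariate the 2 differences were -0.01 and -0.01. The gradient itself differed between these groups, with means of -0.01 in EOD-R and 0.02 in IF16-R (two-sided exact permutation p = 0.0238). The covariate therefore cannot tell the gradient apart from the regimen here. Zfp575 (0.29) and Zfp418 (0.14) had the highest fold changes, within the spread of the groups.

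The tests of change after refeeding gave 1 member higher and 6 lower at an unadjusted p under 0.05 for IF16 (1.20% and 7.23%, against 3.93% and 3.28% of all genes), and 1 higher and 5 lower for EOD (1.20% and 6.02%, against 5.48% and 4.86%). The lower members were led in fold by Zfp36, at -0.61 (SE 0.23, edgeR adjusted p = 0.566) for IF16 and -0.52 (SE 0.23, edgeR adjusted p = 0.467) for EOD. Median changes were -0.01 and -0.02 over the 83 members.

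In the regimen table, Pearson's r between the log2 levels of 2 members across the 15 libraries had a median of 0.24 over 335 pairs of the same block and 0.03 over 2986 other pairs; in the refeeding table the medians were 0.15 and 0.04. Pairs share their libraries, so these are descriptions. Block 1, from Zfp628 to Zfp580 (4915217 to 5053722), had the highest median, 0.74 over 15 pairs in the regimen table, and block 3 had 0.59 over 21 pairs, whereas blocks 2 and 6 had 0.02 each, no higher than pairs from different blocks. In the refeeding table block 1 had a median of 0.21 and block 3 one of 0.04, and the highest was that of block 12, 0.30.

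Blocks 1 and 8 had log2 fold changes of opposite sign. All 6 members of block 1 had log2 fold changes below 0 between IF16 and AL (median -0.28) and between EOD and AL (median -0.27), and all 14 members of block 8 were above 0 between IF16 and AL (median 0.17), with 12 of 14 above 0 between EOD and AL (median 0.13). These comparisons share the AL libraries. None of these members passed the adjusted test. Blocks 7 and 12 had higher medians than block 8: 0.28 and 0.21 between IF16 and AL, and 0.23 and 0.14 between EOD and AL. In the same 2 comparisons, 48.7% and 46.7% of all genes lay above 0. The shares were 74.8% and 66.2% for Zfp genes elsewhere, and 34.3% and 35.2% for other protein-coding genes of chromosome 7. Without the 4 libraries of extreme gradient, the block 1 medians were -0.19 and -0.03 and the block 8 medians 0.12 and 0.12. With the gradient as a covariate they were -0.22 and 0.01 for block 1 and 0.11 and 0.10 for block 8.

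The libraries differed in how counts depended on gene length. The length gradient of a library is the slope of its log2 CPM, relative to each gene's mean, on log2 gene length, so that a positive value goes with relatively more counts on long genes. It was -0.158 in AL replicate 4, -0.106 in AL replicate 5, -0.114 in IF16 replicate 1 and 0.139 in EOD replicate 4, and within ±0.1 in the other 26 libraries. The means of the regimen groups were -0.04 in AL, -0.001 in IF16 and 0.04 in EOD (two-sided exact permutation p = 0.452 for IF16 and 0.175 for EOD against AL).

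Across the 15 regimen libraries, r between a member's log2 CPM and the gradient ran from -0.95 (Zfp580) to 0.96 (Zfp536). It was at least 0.8 for 14 of 82 members (17.1%, against 15% of all genes) and at most -0.8 for 7 (8.54%, against 11.7% of all genes), shares near the background. Without the 4 libraries of extreme gradient, over 11 libraries, 3 of the 14 and 4 of the 7 were still past 0.8 in size. Among the 14, r without these libraries went down to 0.09, for Zfp84. Zfp592, with r = 0.73 over all 15 libraries, had r = -0.37 without them.

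Zfp536, at 37472135 to 37773641, with the highest r, had its lowest regimen level in AL replicate 4, 24.9 CPM, and its highest in EOD replicate 4, 47.4 CPM. Its r was 0.96 and Spearman's rho 0.96 (permutation p adjusted over 164 relations, 0.000328 and 0.000547), with r = 0.92 without the 2 farthest libraries and 0.96 without the 4 of extreme gradient. In the refeeding libraries r was 0.79. Zfp580, with a length of 1101 bases, did the reverse: its highest regimen level was 22.0 CPM in AL replicate 4 and its lowest 11.8 CPM in EOD replicate 2, with r = -0.95 and rho = -0.95 (the same adjusted permutation p-values), r = -0.94 without the 2 farthest libraries and -0.85 without the 4. The raw permutation p of both members, 1e-05, is the smallest that the permutations can give.

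All 6 members of block 1 had a negative r, from -0.60 (Zfp865) to -0.95 (Zfp580), and 11 of the 14 members of block 8 a positive one. A positive r was not particular to block 8: 6 of 7 members of block 3 and 5 of 6 of block 7 had one. In block 16, 7 of 10 members had a negative r. The median r over all 82 members was 0.22. The 7 members with r of at most -0.8 had a median length of 1232 bases, against 3348 bases over all 82 members. The 14 with r of at least 0.8 were not longer than the members as a whole, with a median of 2972.5 bases. Zfp626, the shortest member at 816 bases, had r = 0.85. The cause of the gradient was not tested. Removing each member's slope on the gradient lowered the median r between members of block 1 from 0.74 to 0.50 and that of block 8 from 0.30 to 0.08, and that of block 3 from 0.59 to 0.44, while that of block 12 went from 0.30 to 0.42 and that of block 6 from 0.02 to 0.05. In the refeeding table the median over all pairs of the same block went from 0.15 to 0.16.

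**Figure D5:**
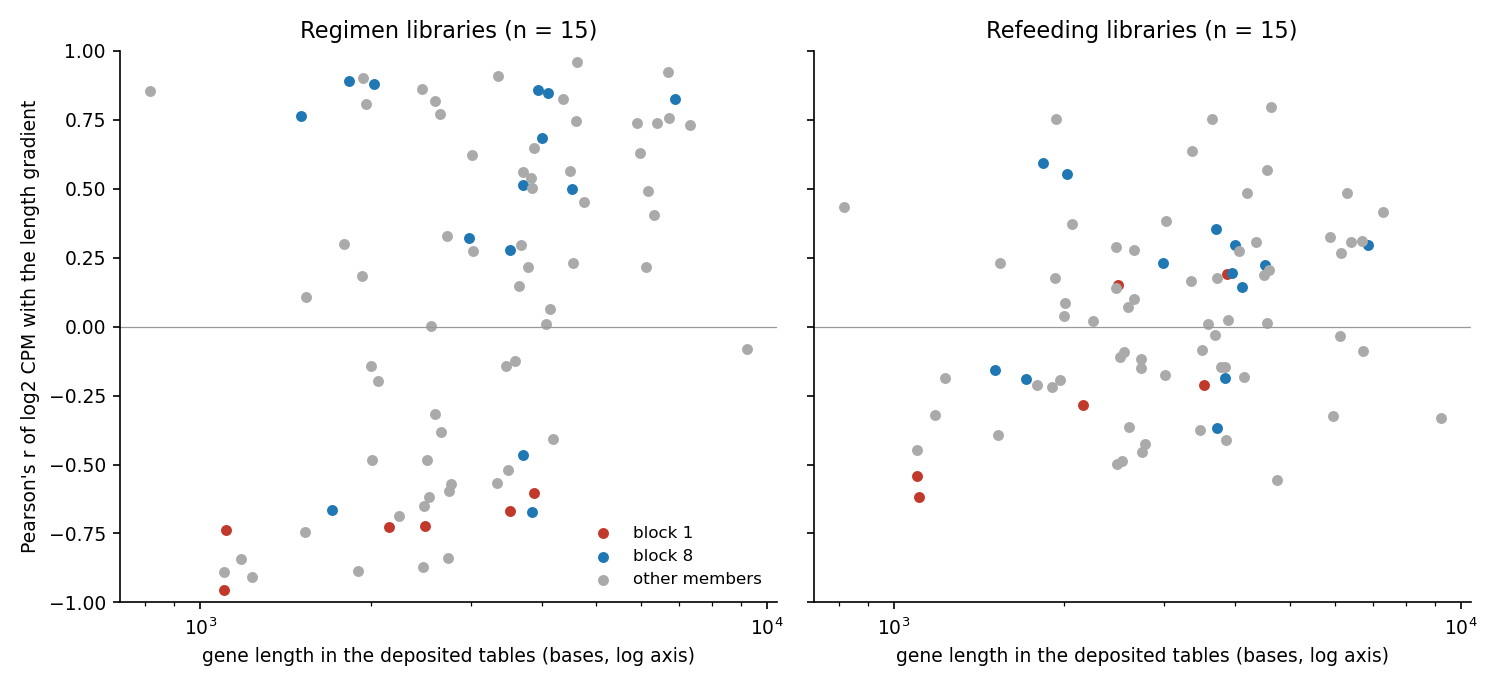
Pearson's r between each member's log2 CPM and the length gradient over the 15 regimen libraries (left) and the 15 refeeding libraries (right), against gene length (log axis); block 1 in red, block 8 in blue. In the regimen libraries all 6 members of block 1 lie below 0, and r spans -0.95 to 0.96; in the refeeding libraries it spans -0.62 to 0.79.

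Genes of the KRAB zinc finger and H3K9me3 machinery also showed no difference that passed. Of 36 genes listed, 35 were found and 34 tested, and 0 had an adjusted p under 0.05 in any comparison. Trim28, the co-repressor that KRAB domains bind, had means of 191 ± 27.4 (AL), 179 ± 17.8 (IF16) and 184 ± 10.9 CPM (EOD; SD, n = 5), and 179 to 181 CPM in the refed groups. Setdb1, which writes H3K9me3, had 48.7 ± 6.96 (AL), 54.9 ± 7.70 (IF16) and 55.1 ± 3.74 CPM (EOD; SD, n = 5), and means of 56.9 to 57.1 CPM in the refed groups.

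The smallest p of this list between IF16 and AL was that of Suv39h1, another H3K9 methyltransferase, with a log2 fold change of 0.18 (SE 0.06, edgeR adjusted p = 0.408). Between EOD and AL it was that of Rif1, a replication timing factor, at 0.55 (SE 0.20, edgeR adjusted p = 0.314), and between EOD and IF16 that of the maintenance methyltransferase Dnmt1, at 0.16 (SE 0.07, edgeR adjusted p = 0.977). After refeeding it was that of Mphosph8, a reader of H3K9me3 in the HUSH complex, at 0.11 (edgeR adjusted p = 0.420, IF16-R against AL-R), that of Cbx3, an HP1 protein, at 0.08 between EOD-R and AL-R (edgeR adjusted p = 0.453), and that of the deacetylase Hdac2, at 0.08 between EOD-R and IF16-R (edgeR adjusted p = 0.447). An unadjusted p under 0.05 was reached in the higher direction by 2, 4, 1, 2, 1 and 1 of the 34 genes in the 6 comparisons in the order given above. These shares were 5.88%, 11.8%, 2.94%, 5.88%, 2.94% and 2.94%, against 4.35%, 7.02%, 1.76%, 4.76%, 4.51% and 4.99% of all genes. In the lower direction it was reached by 1 gene, between EOD-R and IF16-R (2.94%, against 4.76% of all genes). With 34 genes, a single gene makes 2.94%, so these shares are coarse.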

How the data were processed

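RNA-seq of 30 cerebellum libraries was analysed from 2 deposited tables of whole-number read counts per gene, with 15 libraries each. Per the submitters' processing notes the tools include STAR 2.5, HTSeq 0.6.1 and DESeq2, and the build is mm10; their settings, including strand and reads with several matches, are not given in the sources used here. The authors also deposited FPKM, computed from those counts with each gene's length and the library's total; these were used for levels between genes. Counts were tested with edgeR 4.0.16 (R 4.3.3): TMM scaling, filterByExpr by group, 1 quasi-likelihood fit per table, and a joint fit for change after refeeding. Adjusted p-values are Benjamini-Hochberg values over all genes tested, and a call is an adjusted p under 0.05. The scripts were tested on simulated data. The spread of expression between replicates (biological coefficient of variation) was 14.3% in the regimen table and 8.05% in the refeeding table. Counts of replicate pairs differed by more than counting noise in all 60 pairs. Relations with the length gradient used 100000 permutations.

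The members and lists were chosen with earlier results of these data known. Named genes were, per comparison and among members with at least 1 CPM, the 2 highest and 2 lowest in fold change and the 3 smallest p, the 6 most abundant members, and those below the filter in both tables; others, such as Zfp143, Zfp541, Zfp580, Zfp646, Zfp82, Zfp790, Zfp128 and Zfp260, were added after their values were seen. Alternatives were DESeq2 1.42.0, RLE scaling, no filter, a filter of 1 CPM in 5 libraries, a replicate block, the length gradient as a covariate, only the groups compared, leaving out each library and, added after seeing the data, leaving out the 4 libraries with a gradient beyond ±0.1. Promoter sequences are from RefSeq (GRCm38.p6), where 84 of 85 members were found, all 84 within 10000 bases of their deposited position.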

Additional observations from a re-analysis of the deposited data

Results flagged for a closer look

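In 11 of 180 groups of 5 libraries, over 30 named members, 1 library stood apart: its gap to the nearest other library, as a share of the group's whole range in CPM, exceeded Dixon's 95% critical value for 5 samples. About 1 in 20 groups, or 9 of 180, does so by chance.

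AL-R replicate 1 was such a library for 3 members. Zfp667 lay there at 14.1 CPM against 17.8 to 18.3 in the other 4 libraries (share of the range 0.87), Zfp658 at 16.9 against 21.2 to 22.5 CPM (0.76), and Zfp784 at 8.28 against 6.63 to 6.99 CPM (0.781). Replicate 1 of IF16-R was low for Zfp658 as well, at 17.3 against 20.6 to 21.8 CPM (0.736), and replicate 1 of EOD-R was low for Zfp772, at 8.15 against 9.70 to 10.3 CPM (0.734).

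IF16 replicate 1, which has a length gradient of -0.114, stood apart for Zfp526 (9.04 against 11.6 to 12.4 CPM, 0.766) and for Zfp428 (32.7 against 25.5 to 27.5 CPM, 0.717). AL replicate 4, with a gradient of -0.158, was low for Zfp84 (14.3 against 17.6 to 18.9 CPM, 0.712). AL replicate 1 was high for Zfp420 (18.7 against 13.9 to 14.9 CPM, 0.789), AL replicate 3 was high for Zfp141 (4.45 against 3.49 to 3.69 CPM, 0.792), and AL-R replicate 5 was high for Zfp536 (44.7 against 36.7 to 38.6 CPM, 0.76).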

How the results depend on the processing

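The count of members passing between IF16 and AL was 0 and became 1 (Zfp788) with DESeq2 and 1 (Zfp788) with the length gradient as a covariate. These 2 alternatives called 94 of 25070 and 62 of 16577 genes there, against 8 of 16577 in the main test. Every other alternative and comparison run kept a count of 0, leaving out single libraries included (0 to 0). Of 39 named log2 fold changes, that of Zfp109 between IF16-R and AL-R changed sign, to -0.00109 with the gradient as a covariate; the cause was not tested. The median over members stayed between 0.01 and 0.09 for IF16 against AL and between 0.00 and 0.06 for EOD against AL. Low counts limit members under 2 CPM, such as Zfp575, Zfp626, Zfp773 and Zfp114.

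Replicate numbers are shared by the groups. Correlations of same-numbered libraries' deviations from their group means ran from -0.55 to 0.34 in the regimen table (median -0.05, 3 of 15 pairs over 0.1). In the refeeding table they ran from -0.05 to 0.43 (median 0.11, 8 of 15 over 0.1). The tests did not pair samples, and whether same-numbered refed libraries belong together was not tested. A replicate block raised the calls over all genes from 28 to 95 (IF16-R against AL-R), 7 to 45 (EOD-R against AL-R) and 3 to 40 (EOD-R against IF16-R). It lowered them from 8 to 5 (IF16 against AL) and 11 to 4 (EOD against AL). With a replicate block, 0 members passed in each of the 8 tests, the same count as without it.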
